A study of Mus musculus with 6 samples.

Results

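The 6 interferon regulatory factor genes Irf1, Irf2, Irf3, Irf5, Irf7 and Irf8 were followed in 4T1 cells, a mouse mammary carcinoma line, with and without knockout of Etv4, the gene of a PEA3-type ETS transcription factor. They were taken by symbol from the 31017 genes of the count table, and 6 of 6 were among the 12076 genes with enough counts to test. Irf9 was not part of the set. The ETV4 KO group held 3 samples of cells nucleofected with Cas9 and guides against the gene, and the control group held 3 samples nucleofected with Cas9 and control guides. All 6 samples were grown in collagen I gels, and RNA freed by collagenase digestion of the gels went into libraries made with a stranded mRNA kit; the collagen concentration of each sample is not given in the labels. The ETV4 KO libraries share 1 code, c39, and the labels say neither whether it is a clone nor whether replicates came from separate cultures. P-values thus weigh the group difference against the spread among these samples, and that spread may be technical only. They do not speak to other Etv4 knockout cells.

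Interferon regulatory factors (IRFs) bind DNA through an N-terminal domain that recognises GAAA repeats in interferon-stimulated response elements and similar sites. IRF3 is present in most cells and is activated by phosphorylation downstream of cytosolic and endosomal nucleic acid sensors, whereas the genes for IRF1 and IRF7 are themselves induced by interferon. IRF2 binds the same sites as IRF1 and can act as its antagonist. IRF5 acts mainly downstream of Toll-like receptors, and IRF8 is best known for its role in myeloid and lymphoid differentiation.

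In ETV4 KO cells 4 of the 6 genes fell, Irf1, Irf2, Irf7 and Irf8, each to between 56.5% (Irf7) and 64.8% (Irf2) of its control level. Irf3 and Irf5 did not pass the test, with 94.95% and 103.6% of the control level. Over all tested genes 36.0% were called lower and 35.0% higher (71.1% in either direction) by edgeR's quasi-likelihood test at a Benjamini-Hochberg adjusted p under 0.05. The median log2 fold change of all tested genes was -0.0038. Calls were therefore common in this comparison, and the members' sizes of change are given beside those of other genes below.

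Etv4 itself, the targeted gene, had 87.4, 89.5 and 92.3 CPM (counts scaled to library size) in ETV4 KO replicates 1, 2 and 3, against 134, 135 and 133 CPM in control replicates 1, 2 and 3, all with TMM factors (log2 fold change -0.58, SE 0.036, edgeR adjusted p = 1.03e-14). Etv4 lies on chromosome 11, and the 101 other expressed genes of its 10 Mb bin had a median log2 fold change of -0.46. Less that median, Etv4 had -0.11. The part of the local difference in the fall of Etv4 was not tested. Total counts ran between 22355015 and 29042569 per library. Epithelial marker genes, 6 of 6 tested, summed to 4110 to 4309 CPM in ETV4 KO libraries and 5465 to 5622 CPM in control libraries. Of these, 4 were called lower and 1 higher, where 36.0% of all tested genes were called lower and 35.0% higher. Epcam (log2 fold change -1.37), Krt8 (-0.48), Krt18 (-0.42) and Cdh1 (-0.19) fell, Krt19 (0.13) rose and Krt7 was not called. With bin medians taken out, Cdh1 was no longer called (edgeR adjusted p = 0.109) and Krt7 was called lower (edgeR adjusted p = 0.00148). Irf5 and Irf8 are best known in blood cells, and markers of these were looked for. The 10 macrophage and monocyte markers summed to 19.1 to 20.4 CPM in ETV4 KO and 17.3 to 18.5 CPM in control libraries, nearly all from Cd68 and Cd14, while Adgre1, Lyz2 and Tyrobp had 0 counts in all 6 libraries. Of the 3 of these that were tested, Cd14 (log2 fold change 0.28, SE 0.095, edgeR adjusted p = 0.00955) and Mrc1 (1.67, SE 0.39, edgeR adjusted p = 0.000376; 58 counts over the ETV4 KO and 17 over the control libraries) were called higher, and Cd68 was not called. The rise of Cd14 was lost with its 10 Mb bin median taken out (0.14, adjusted p = 0.217), where Cd68 was called higher (0.42, adjusted p = 0.000212). Csf1r, too low to test, had 5 counts over the ETV4 KO libraries and 39 over the control libraries. Ptprc, the pan-leukocyte marker CD45, had 16 counts over the 3 ETV4 KO libraries and 8 over the 3 control libraries. The 6 dendritic cell genes summed to 3.797 to 4.434 CPM in ETV4 KO and 1.77 to 2.42 CPM in control libraries, mostly Zbtb46, which was called higher (1.07, SE 0.16, edgeR adjusted p = 9.01e-07). The 8 fibroblast genes summed to 13.2 to 14.7 CPM in ETV4 KO and 9.96 to 11.8 CPM in control libraries, mostly Pdgfra, which was called higher (0.32, SE 0.083, edgeR adjusted p = 0.00121) but not with its bin median taken out (0.18, adjusted p = 0.0600). The 8 lymphocyte genes summed to 0.485 to 0.804 CPM in ETV4 KO and 0.440 to 0.886 CPM in control libraries, and the 4 endothelial genes to 0.121 to 0.314 CPM in ETV4 KO and 0.220 to 0.604 CPM in control libraries. Clec9a, Siglech, Cd3e, Cd3g, Cd8a, Ncr1, Lum and Thy1 were at 0 counts. In bulk samples fewer cells that express a gene and less RNA per cell cannot be told apart.

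Promoter sequence is shown for the 3 members that fell and whose promoter windows held matches to motifs of interferon signalling. The windows are RefSeq's on GRCm38.p6, 250 bases before to 50 bases after a start site, and 6 of 6 members matched, with 8 windows in all. Both strands were searched for an IRF-type site (a pair of GAAA repeats 2 bases apart), the GAS site of STAT factors (TTCNNNGAA), the PEA3 site of ETS factors (AGGAAG) and the NF-kB site. Each stretch below has 100 bases in the direction of transcription, on the plus strand, with matches in capitals.
Irf1, chr11:53769914-53770013: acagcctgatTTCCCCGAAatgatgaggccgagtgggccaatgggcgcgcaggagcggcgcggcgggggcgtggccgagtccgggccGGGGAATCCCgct
Irf2, chr8:46739495-46739594: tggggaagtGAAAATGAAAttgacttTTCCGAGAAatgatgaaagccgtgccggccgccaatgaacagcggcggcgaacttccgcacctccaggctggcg
Irf8, chr8:120736158-120736257: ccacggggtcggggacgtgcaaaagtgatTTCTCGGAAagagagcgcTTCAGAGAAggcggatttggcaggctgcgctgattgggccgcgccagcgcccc

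In Irf1 the capitals mark a GAS match 90 to 82 bases upstream of the start site and an NF-kB match 13 to 4 bases upstream. In Irf2 they mark an IRF-type match 241 to 232 bases upstream and a GAS match 224 to 216 bases upstream. The Irf2 window also held a PEA3 match 90 to 85 bases upstream and an NF-kB match 17 to 8 bases upstream, outside the stretch shown. In Irf8 the capitals mark 2 GAS matches, 171 to 163 and 153 to 145 bases upstream. The second Irf1 window held a PEA3 match 130 to 125 bases upstream. The windows of Irf3, Irf5 and Irf7 and the second window of Irf8 held none of these letters, and no matches overlapped. Of all 32851 promoter windows, 3.44% held the IRF-type motif, 8.30% the GAS motif, 35.4% the PEA3 motif and 4.51% the NF-kB motif. Of the members that fell, Irf1, Irf2 and Irf8 held a GAS match, whereas Irf7 held none. The shares over all promoters are per window, and any link of a match to the fall of a gene was not tested.

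**Figure D1:**
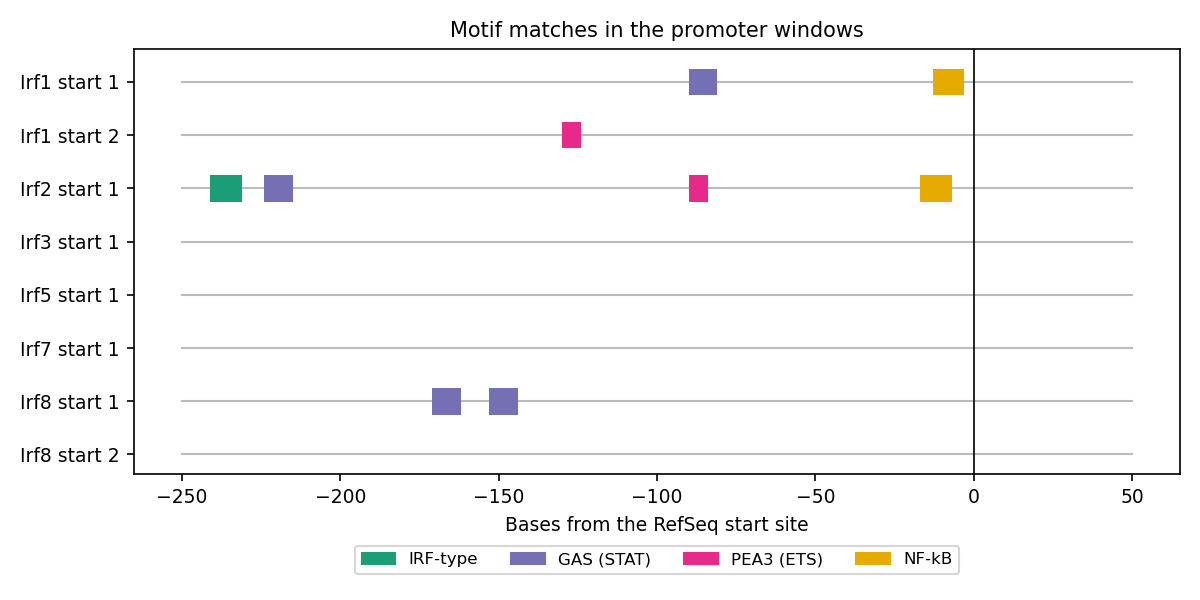
Motif matches in the 8 RefSeq promoter windows of the 6 genes, drawn by distance in bases from the start site (vertical line). The first windows of Irf1, Irf2 and Irf8 hold GAS matches, Irf2 alone of these 8 windows holds an IRF-type match, and 4 windows hold no match.

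Irf1 encodes the activator of immunoproteasome, peptide transport and guanylate-binding protein genes that interferon-gamma induces. It lies on chromosome 11, 53770014 to 53778374 on the plus strand of mm10. It had 20.9, 23.5 and 22.4 CPM in ETV4 KO replicates 1, 2 and 3 (599, 581 and 535 counts), against 34.9, 35.1 and 34.3 CPM in control replicates 1, 2 and 3 (810, 951 and 779 counts). Each ETV4 KO library was below each control library, and the controls lay closer together than the knockouts. The means were 22.3 CPM ± 1.27 and 34.8 CPM ± 0.442 (SD, n = 3 per group). The log2 fold change was -0.65 (SE 0.056, 95% interval -0.76 to -0.53, edgeR adjusted p = 1.85e-11). Of all tested genes 10.8% had a log2 fold change at or below this.

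Many genes of chromosome 11 were lower in ETV4 KO cells, with a median log2 fold change of -0.38 over its 764 expressed genes. The other 74 expressed genes in the 10 Mb bin of Irf1 had a median of -0.34. With that median taken out Irf1 had -0.31 (SE 0.056, edgeR adjusted p = 1.95e-05). This SE treats the bin median as known without error. Within 1 Mb of Irf1 there were 18 other tested genes, of which 11 were called lower and 3 higher, and 3 had a lower log2 fold change than Irf1. The part of the chromosome-wide difference in the fall of Irf1 was not tested further.

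Irf2, which encodes the factor that competes with IRF1 for its sites and was the most counted member, lies on chromosome 8, 46739732 to 46847458 on the plus strand. It had 45.1, 43.2 and 44.8 CPM in ETV4 KO replicates 1, 2 and 3 (1290, 1069 and 1072 counts), against 70.8, 66.6 and 68.4 CPM in control replicates 1, 2 and 3 (1642, 1803 and 1554 counts). The groups were far apart compared with the spread inside either. The means were 44.4 CPM ± 1.03 and 68.6 CPM ± 2.11 (SD, n = 3 per group). The log2 fold change was -0.63 (SE 0.044, 95% interval -0.72 to -0.54, edgeR adjusted p = 1.43e-13), with 11.3% of tested genes at or below it. The 25 other expressed genes of its 10 Mb bin had a median of -0.13. Of 17 tested genes within 1 Mb of Irf2, 7 were called lower and 3 higher.

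Irf1 and Irf2 had log2 fold changes of -0.65 and -0.63, but of -0.31 and -0.50 (SE 0.056 and 0.044) with their 10 Mb bin medians taken out; the difference between the genes was not tested. Per kilobase of annotated exon, the ratio of Irf1 to Irf2 mRNA was 0.864, 1.01 and 0.928 in ETV4 KO replicates 1, 2 and 3, and 0.918, 0.981 and 0.932 in control replicates 1, 2 and 3. The group ranges overlapped, with means of 0.934 ± 0.0738 in ETV4 KO and 0.944 ± 0.0332 in control libraries (SD, n = 3 each).

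Irf7 encodes the interferon-induced factor that drives interferon-alpha genes and was the least counted member. It lies on chromosome 7, 141262706 to 141266481 on the minus strand. It had 1.08, 1.33 and 1.51 CPM in ETV4 KO replicates 1, 2 and 3 (31, 33 and 36 counts), against 1.68, 2.66 and 2.51 CPM in control replicates 1, 2 and 3 (39, 72 and 57 counts). The highest ETV4 KO library lay just below control replicate 1, which was well under the other controls. The means were 1.31 CPM ± 0.213 and 2.28 CPM ± 0.526 (SD, n = 3 per group). The log2 fold change was -0.82 (SE 0.21, 95% interval -1.26 to -0.39, edgeR adjusted p = 0.00111). Leaving out 1 sample at a time gave log2 fold changes from -0.996 (without control replicate 1) to -0.689 (without control replicate 2), with adjusted p at most 0.0167. Unlike its bin, whose 58 other expressed genes had a median of 0.17, Irf7 was lower. Its exons share 45 bases with Phrf1 on the other strand, a far more abundant mRNA that rose, with 121 CPM in ETV4 KO and 104 CPM in control libraries (log2 fold change 0.22, SE 0.036, edgeR adjusted p = 4.08e-06). The kit keeps strand, but no source used here gives the strand setting of the counting, so a part of the few Irf7 counts may belong to Phrf1.

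Irf8 encodes a factor of the macrophage, dendritic cell and B cell lineages, and its mRNA was counted in each of these carcinoma libraries. It lies on chromosome 8, 120736358 to 120756694 on the plus strand. It had 8.84, 9.57 and 9.24 CPM in ETV4 KO replicates 1, 2 and 3 (253, 237 and 221 counts), against 15.9, 15.5 and 15.5 CPM in control replicates 1, 2 and 3 (370, 420 and 352 counts). All 3 ETV4 KO libraries were below all 3 controls, with little spread in either group. The means were 9.22 CPM ± 0.368 and 15.6 CPM ± 0.262 (SD, n = 3 per group). The log2 fold change was -0.76 (SE 0.077, 95% interval -0.92 to -0.61, edgeR adjusted p = 4.01e-10), and 8.65% of tested genes were at or below it. The 68 other expressed genes of its bin had a median of -0.027, and Irf8 had -0.74 with that median taken out. Its partner in myeloid cells, the ETS factor gene Spi1 (PU.1), had 16 counts over the ETV4 KO libraries and 3 over the controls, too few to test. Of the 10 macrophage markers in these same libraries 3 were at 0 counts. Of the 3 tested, 2 were called higher and 0 lower, where 35.0% of all tested genes were called higher and 36.0% lower. Of the 2 markers called higher, Mrc1 had 58 counts over the ETV4 KO and 17 over the control libraries. With bin medians taken out, Cd14 was no longer called (edgeR adjusted p = 0.217) and Cd68 was called higher (edgeR adjusted p = 0.000212). Csf1r, too low to test, went the other way, with 5 counts over the ETV4 KO and 39 over the control libraries. Of the 6 dendritic cell markers 2 were at 0 counts, and the 1 tested was called higher. The part of such cells in the Irf8 counts was not tested.

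Irf3 encodes the factor that is phosphorylated after nucleic acid sensing and drives interferon-beta. It lies on chromosome 7, 44997648 to 45002848 on the plus strand. It had 29.9, 31.4 and 29.1 CPM in ETV4 KO replicates 1, 2 and 3 (856, 777 and 695 counts), against 31.3, 32.8 and 31.1 CPM in control replicates 1, 2 and 3 (725, 887 and 706 counts). The groups overlapped. The log2 fold change was -0.075 (SE 0.053, 95% interval -0.18 to 0.035, edgeR adjusted p = 0.212), and the interval spans 0.880 to 1.02 times the control level. The call depended on the scaling: with library size alone Irf3 was called lower at -0.13 (adjusted p = 0.0370), and with the median of its 10 Mb bin taken out, 0.19 over 61 genes, it was called lower at -0.26 (adjusted p = 9.49e-05). Its exons share 88 bases with Bcl2l12 on the other strand, which had 4.95 CPM in ETV4 KO and 4.31 CPM in control libraries.

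Irf5 encodes a factor that drives inflammatory cytokine genes in myeloid cells. It lies on chromosome 6, 29526625 to 29541871 on the plus strand. It had 4.19, 3.31 and 3.51 CPM in ETV4 KO replicates 1, 2 and 3 (120, 82 and 84 counts), against 3.79, 3.29 and 3.65 CPM in control replicates 1, 2 and 3 (88, 89 and 83 counts). ETV4 KO replicate 1 was the highest library and the others were intermixed. The log2 fold change was 0.051 (SE 0.14, edgeR adjusted p = 0.756), and its 95% interval, -0.24 to 0.34, spans 0.847 to 1.27 times the control level. Its sign changed without ETV4 KO replicate 1 (-0.064) and without control replicate 2 (-0.013). Its exons share 411 bases with Tnpo3 on the other strand, which had 125 CPM in ETV4 KO and 130 CPM in control libraries, so its counts are uncertain as well.

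**Figure D2:**
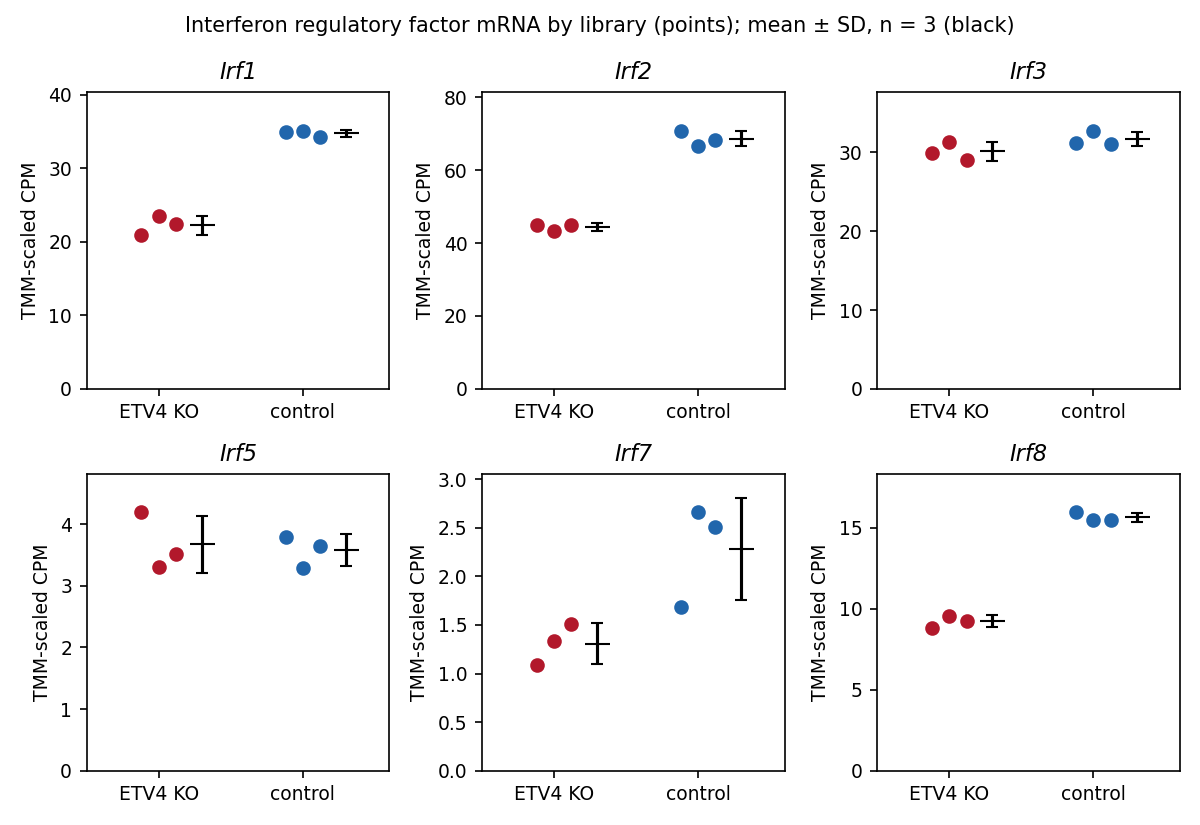
TMM-scaled CPM of the 6 genes in each library (points), with the mean ± SD of 3 libraries in black, ETV4 KO on the left of each panel; every axis starts at 0. The groups do not overlap for Irf1, Irf2, Irf7 and Irf8, and overlap for Irf3 and Irf5.

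The groups thus did not overlap for 4 of the 6 members, where the 3 values of 1 group lay wholly above the other's in 72.7% of all tested genes. The 3 ETV4 KO values lay wholly below the control values in these 4 members and in 36.6% of all tested genes.

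**Figure D3:**
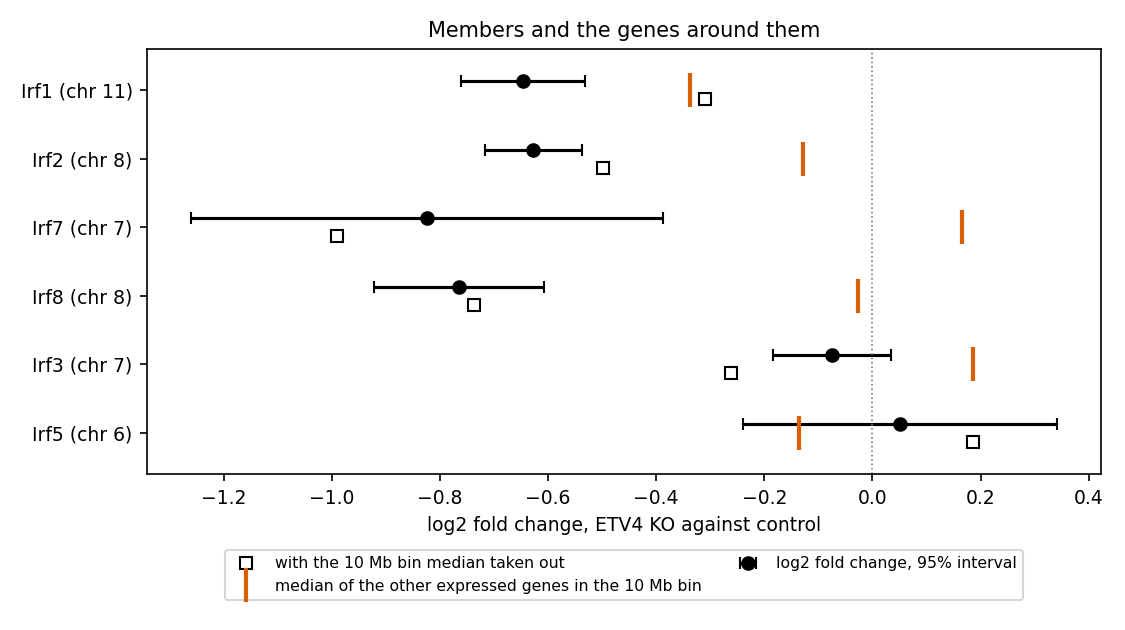
Log2 fold changes of ETV4 KO against control with 95% intervals (filled circles), the same with the 10 Mb bin median taken out (open squares) and that median itself (orange marks). Irf1 moves from -0.65 to -0.31 when the bin median is taken out, while Irf8 has -0.76 and -0.74, and Irf7 moves further from 0.

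Levels were compared between members only per kilobase of the union of annotated exons. In ETV4 KO cells Irf3 had the highest level with 8.75 CPM per kb ± 0.340, followed by Irf2 with 5.998 ± 0.139, Irf1 with 5.598 ± 0.321, Irf8 with 1.31 ± 0.0521, Irf5 with 1.26 ± 0.159 and Irf7 with 0.346 ± 0.0563 (SD, n = 3). In control cells the order was Irf2 with 9.27 CPM per kb ± 0.285, Irf3 with 9.21 ± 0.269, Irf1 with 8.74 ± 0.111, Irf8 with 2.22 ± 0.0371, Irf5 with 1.23 ± 0.0900 and Irf7 with 0.604 ± 0.139 (SD, n = 3). Irf3 stood above the libraries of every other member in ETV4 KO cells, whereas in control cells its range overlapped that of Irf2 and both lay above Irf1. Irf2 and Irf1 overlapped in ETV4 KO cells, and so did Irf8 and Irf5, although Irf8 was above Irf5 in each control library. With the longest transcript as the length, Irf8 lay above Irf5 in ETV4 KO cells too, with 2.66 CPM per kb ± 0.106 for Irf8 and 1.64 CPM per kb ± 0.206 for Irf5 and no overlap (SD, n = 3). The order of Irf2, Irf3 and Irf1 in controls also depended on the length used: with the longest transcript it was Irf2 (17.3 CPM per kb), Irf1 (16.3) and Irf3 (15.6).

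The 6 levels summed to 23.0, 23.7 and 23.1 CPM per kb in ETV4 KO replicates 1, 2 and 3, and to 31.4, 31.4 and 31.0 CPM per kb in control replicates 1, 2 and 3. Irf3 made up 37.6% ± 0.919 of the sum in ETV4 KO and 29.4% ± 0.776 in control libraries (SD, n = 3 each). Irf1 made up 24.1% ± 1.07 in ETV4 KO and 27.96% ± 0.172 in control libraries. Irf2 made up 25.8% ± 1.02 in ETV4 KO and 29.6% ± 0.889 in control libraries, and Irf8 5.62% ± 0.153 in ETV4 KO and 7.09% ± 0.0931 in control libraries. Shares of a sum depend on each other, and no test was made on them.

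**Figure D4:**
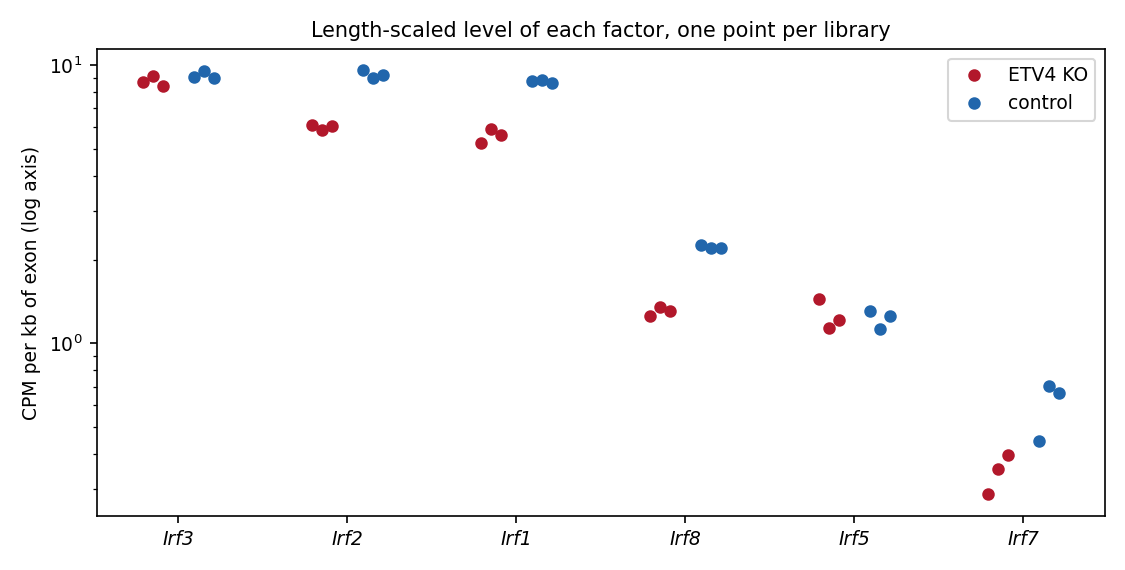
Level of each gene per kilobase of exon on a log axis, one point per library, ETV4 KO left of control. Irf3, Irf2 and Irf1 lie together near 9 CPM per kb in control libraries, and in ETV4 KO libraries Irf3 stays between 8.45 and 9.12 while Irf2 and Irf1 lie between 5.26 and 6.09.

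Among the genes that act upstream of the IRFs or with them, directions differed between lists, and no test between lists was made. Over all tested genes 36.0% were called lower and 35.0% higher, so a count near these shares is not particular to a list. Of the 12 interferon receptor, kinase and STAT genes 0 rose and 10 fell by edgeR with p adjusted over all tested genes; the median log2 fold change was -0.41 beside -0.0038 for all genes. Those that fell the most were the kinase genes Jak2 (-1.14, SE 0.038) and Tyk2 (-0.68, SE 0.063) and the STAT gene Stat2 (-0.66, SE 0.066). Jak2 had 81.7 CPM ± 2.89 in ETV4 KO and 180.6 CPM ± 5.66 in control libraries (SD, n = 3 each). Irf9, which encodes the DNA-binding subunit of the ISGF3 complex, is in this list and had -0.41 (SE 0.089, edgeR adjusted p = 0.000144). With the 10 Mb bin medians taken out 8 of the 12 were called lower and 1 higher.

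Of 10 tested sensors and adaptors upstream of IRF activation 1 rose and 6 fell, with a median of -0.26. Over all tested genes 35.0% were called higher and 36.0% lower. The RIG-I-like helicase genes Dhx58 and Ddx58 had -4.02 (SE 0.21) and -1.20 (SE 0.066), and the endosomal double-stranded RNA receptor gene Tlr3 had -0.77 (SE 0.066). Mavs, the mitochondrial adaptor of RIG-I, rose by 0.26 (SE 0.052), which was lost with the bin median taken out (-0.015, adjusted p = 0.811).

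The 13 genes for kinases, ligases and scaffolds that activate IRFs were mostly higher, with 8 called higher, 3 lower and a median of 0.22. Over all tested genes 35.0% were called higher and 36.0% lower. The TBK1-binding scaffold gene Tbkbp1, on chromosome 11, rose by 2.31 (SE 0.11), with 15.6 CPM ± 1.24 in ETV4 KO and 3.13 CPM ± 0.375 in control libraries (SD, n = 3 each). Slc15a4, an endolysosomal transporter gene needed for IRF5 activation, and the ubiquitin ligase gene Traf3 rose by 0.33 and 0.32 (SE 0.053 and 0.036), and these calls were lost with the bin medians taken out (0.086 and 0.034, adjusted p = 0.159 and 0.415). With the bin medians taken out 3 rose and 3 fell. The IRF3 and IRF7 kinase genes Ikbke and Tbk1 had -0.44 (SE 0.056) and -0.14 (SE 0.039), and Ikbkb, which encodes a kinase of NF-kB and IRF5, had -0.18 (SE 0.037). The call of Tbk1 was lost with its bin median taken out (-0.030, adjusted p = 0.513).

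Of 6 genes for IRF turnover 4 fell and 2 rose, where 36.0% of all tested genes were called lower and 35.0% higher. The ubiquitin ligase genes Trim21 and Rbck1 had -1.11 and -0.29, whereas the ligase genes Ube3c and Stub1 rose by 0.61 and 0.45 (SEs 0.036 to 0.12 over these 4 genes). The rise of Stub1 was lost with its bin median taken out (0.091, adjusted p = 0.0837) and that of Ube3c was 0.34. Of 6 tested partners and cofactors 3 rose, the IRF2-binding protein genes Irf2bpl (0.29, SE 0.037) and Irf2bp1 (0.16, SE 0.042) and the acetyltransferase gene Ep300 (0.23, SE 0.045). The acetyltransferase gene Crebbp fell by 0.13 on the log2 scale (SE 0.053, edgeR adjusted p = 0.0313), a call that turned to a rise of 0.15 with its bin median taken out (edgeR adjusted p = 0.0140). It was lost with DESeq2 (-0.13, adjusted p = 0.0693) and, in edgeR, on leaving out ETV4 KO replicate 2 (-0.055, adjusted p = 0.307), control replicate 1 (-0.11, adjusted p = 0.111) or control replicate 3 (-0.10, adjusted p = 0.143).

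Genes known as IRF1 targets were lower almost throughout: of 12 tested, 0 rose and 10 fell, and the median was -1.69. Over all tested genes 36.0% were called lower and 35.0% higher, with a median of -0.0038. The list was drawn up with earlier results of these data known, so its counts are a description and no separate support. Psmb8, Psmb9 and Tap1 of this list all lie on chromosome 17. The inflammatory caspase gene Casp1 had 1 count over the 3 ETV4 KO libraries and 104 over the 3 control libraries, a ratio of control to ETV4 KO of 110.1 with a 95% counting interval of 19.3 to 4390. The immunoproteasome genes Psmb8 and Psmb9 had 1.75 and 0.531 CPM in ETV4 KO, against 17.3 and 5.01 CPM in control libraries. B2m (0.0080, SE 0.034, adjusted p = 0.841) and Socs1 (-0.061, SE 0.084, adjusted p = 0.528) did not pass the edgeR test, and B2m was called lower with its bin median taken out (-0.18, adjusted p = 3.06e-05). Of 2 genes known as IRF2 targets, the pore-forming gasdermin gene Gsdmd did not pass (0.10, SE 0.090, edgeR adjusted p = 0.308). The caspase gene Casp4 had 1 count over the ETV4 KO libraries and 59 over the control libraries, a ratio of control to ETV4 KO of 62.5 with an interval of 10.8 to 2508. The intervals cover counting error only.

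Genes known as targets of IRF3 and IRF7 went both ways, as did all tested genes, of which 36.0% were called lower and 35.0% higher. Of 13, 5 were tested, and the ubiquitin-like modifier gene Isg15 (-3.06, SE 0.16), the RNA-binding antiviral gene Ifit1 (-1.42, SE 0.31) and the chemokine gene Ccl5 (-1.41, SE 0.23) fell. The chemokine gene Cxcl10 (0.63, SE 0.23) and the antiviral gene Ifit2 (0.40, SE 0.12) rose. The call of Cxcl10 was lost without ETV4 KO replicate 3 (0.58, adjusted p = 0.0527) and without control replicate 3 (0.39, adjusted p = 0.144), and both rises were lost with the bin medians taken out (0.41 and 0.23). Ifnb1 and the 5 interferon-alpha genes looked for, Ifna1, Ifna2, Ifna4, Ifna5 and Ifna6, had 0 counts in all 6 libraries. A floor of 3 counts allows up to 0.105 to 0.132 CPM per library. That floor does not cover reads shared between related genes, since no source used here gives the treatment of multi-mapping reads.

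Target genes known from myeloid cells were mostly unmeasured here. Of the 6 listed for IRF5 only Il23a, a cytokine subunit gene, was tested, and it fell by 1.01 on the log2 scale (SE 0.055). Of the 5 listed for IRF8, Cybb and Il12b had 0 counts, while the transcription factor gene Klf4 and the protease inhibitor gene Cst3, which epithelial cells also express, rose by 0.53 and 0.41 (SE 0.035 each). The rise of Cst3 was 0.27 with its bin median taken out.

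**Figure D5:**
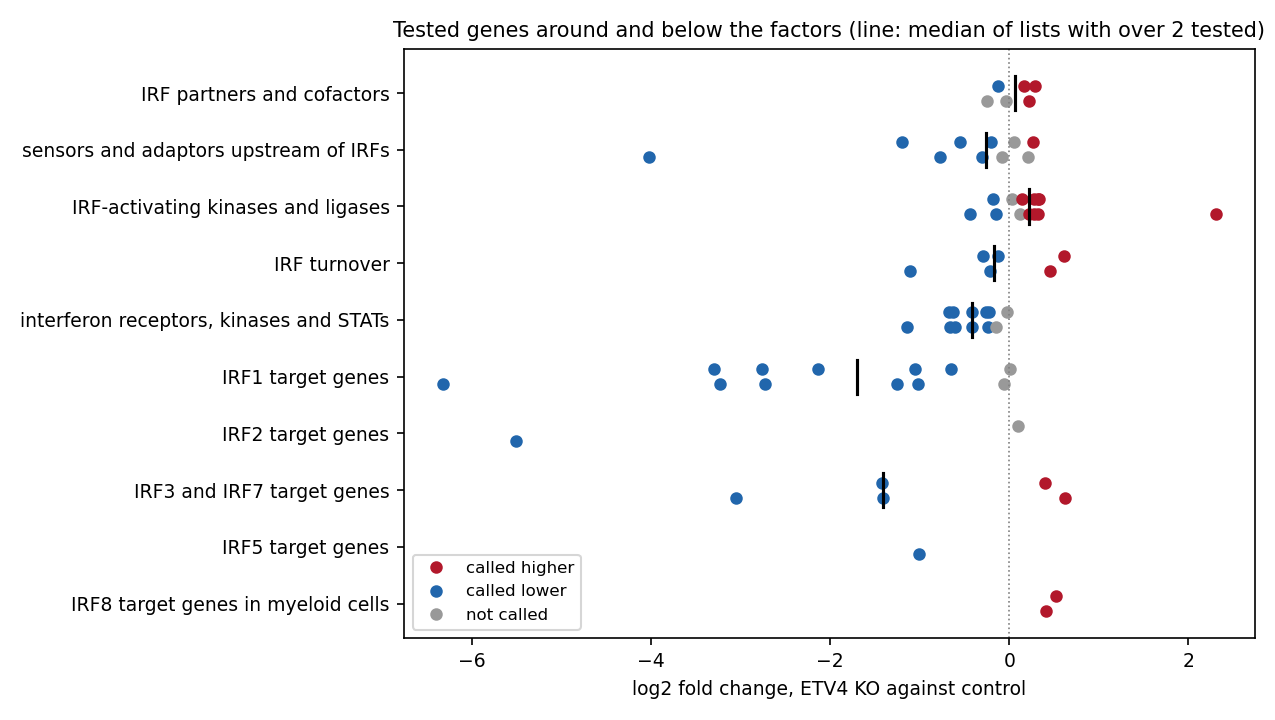
Log2 fold changes of the tested genes in each list, coloured by call at an edgeR adjusted p under 0.05, with the list median as a black line where over 2 genes were tested. The IRF1 targets lie almost wholly below 0 with a median of -1.69, and the activating kinases and ligases lie mostly above 0; the points of Casp1 and Casp4 beyond -5 rest on 1 count each in ETV4 KO.

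The genes whose profile over the 6 libraries was closest to each member were found by the root mean square difference of mean-centred log2 CPM. For Irf1 these were Gsr, Mrpl58 and Gdf11 (0.024 to 0.027 log2 units), for Irf2 the TAZ gene Wwtr1, Mbtd1 and Smad3 (0.019 to 0.020), and for Irf8 Top3b, Mrps6 and Hook2 (0.015 to 0.025). For Irf3 they were Unc45a, Mxd4 and Klhdc4 (0.0078 to 0.014), for Irf5 Scyl2, Foxo1 and Apaf1 (0.040 to 0.047), and for Irf7 Slc52a3, Zfp593 and Atp5s (0.080 to 0.093). With 2 groups of 3 libraries this measure mostly picks genes of the same log2 fold change, and the weaker likeness for Irf5 and Irf7 goes with their low counts.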

How the data were processed

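Poly(A) RNA-seq libraries of 3 ETV4 KO and 3 control samples were grouped by their titles, and table columns were matched by library name. The authors deposited raw counts per gene symbol, not normalized, as the whole-number values show. Per the submitters' processing notes, STAR 2.7.9a, featureCounts, FastQC 0.11.9 and R 4.1.1 were used, and the builds mm10 and hg38 are listed with no role. No source used here gives the strand setting or the treatment of multi-mapping reads, which leaves overlapping genes uncertain.

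Counts were analysed with edgeR 4.0.16 in R 4.3.3 (filterByExpr with minimum count 10 and minimum total 15, TMM, glmQLFit and glmQLFTest, group as the only term), with Benjamini-Hochberg adjustment over 12076 genes and calls at an adjusted p under 0.05. The SE is the absolute log2 fold change over the square root of F. Log2 CPM used a pseudocount of 0.5. Counting intervals are 95% Clopper-Pearson, and the floor is 3 counts per library. Positions and exon lengths came from GENCODE M21 (mm10), with 1 position for 30416 of 31017 symbols. Bin medians used the other genes with a log2 CPM above 3 in a 10 Mb bin holding at least 10. The fit was also run on simulated counts of 12076 genes, of which 11876 were unchanged. It called 62% of the genes changed 1.2-fold, 88% at 1.5-fold and 98% at 2-fold and at 4-fold. Of the unchanged genes 0.067% were called. In the data 71.1% of genes were called, so this simulation cannot check the scaling or the calls in that setting.

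The members, lists and alternatives were chosen with earlier results of these data known. Named genes are the members, up to 3 called genes per list and direction with the largest change, the nearest or overlapping genes, and the 3 genes of closest profile; genes named beyond these were chosen after their values were seen. Protein sequences and a few of the genes so chosen are not reported here. Alternatives were other scalings, DESeq2 1.42.0, limma-voom (limma 3.58.1), other filters, a replicate block, each sample left out, an adjusted p under 0.01 and the bin medians.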

Additional observations from a re-analysis of the deposited data

How the results depend on the processing

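Irf1, Irf2, Irf7 and Irf8 were called lower under each of the 16 alternatives run. Their log2 fold changes ran over these from -0.70 to -0.31 (Irf1), -0.68 to -0.50 (Irf2), -0.996 to -0.69 (Irf7) and -0.82 to -0.73 (Irf8). Irf3 was not called in the main analysis and was called lower with the 10 Mb bin median taken out (-0.26) and with library size only (-0.13); the cause was not tested. Irf5 was called under none of the 16, and its sign turned without ETV4 KO replicate 1 (-0.064) and without control replicate 2 (-0.013). With each sample left out in turn Irf5 ran from -0.064 to 0.12, Irf3 from -0.10 to -0.048, Irf1 from -0.68 to -0.60, Irf2 from -0.65 to -0.60, Irf7 from -0.996 to -0.69 and Irf8 from -0.79 to -0.73, and between 8152 and 8519 genes were called.

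With the bin medians taken out, calls among partners and cofactors were 0 lower, among activating kinases and ligases 3 higher, in IRF turnover 1 higher, among interferon receptors, kinases and STATs 1 higher, and among IRF3 and IRF7 targets 0 higher. Partners and cofactors had 0 called lower with DESeq2 and at an adjusted p under 0.01, 2 with library size only, and 0 to 1 with a sample left out. IRF3 and IRF7 targets had 1 called higher at an adjusted p under 0.01 and 1 to 2 with a sample left out, and sensors and adaptors had 1 to 2 called higher with a sample left out. When genes needed 1 CPM or more in 3 libraries, 0 IRF2 targets were called lower, since Casp4 was no longer tested.

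The replicate numbers were checked for pairing. Deviations of same-numbered samples from their group means correlated at 0.11, 0.084 and 0.0026 over 11118 genes. These values were low, but 4 of 6 samples correlated best with their own number. The check does not settle whether the samples were paired, and the main fit did not take the numbers as pairs. A fit with the replicate block called 8882 genes against 8582 without it, and gave log2 fold changes of -0.64 (Irf1), -0.63 (Irf2), -0.80 (Irf7), -0.76 (Irf8), -0.073 (Irf3) and 0.039 (Irf5), with the same calls. Depth limits Irf7, with 31 to 72 counts per library, and Irf5, with 82 to 120.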
